A study of Arabidopsis thaliana with 10 samples.

Results

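The nuclear-encoded genes of the photosynthetic light reactions were taken from the transcriptome of Arabidopsis thaliana shoots as a list of 45 gene identifiers. These were chosen by the function of their products, with earlier results of these data known. All 45 were present among the 32824 genes of the deposited table. They comprise 18 genes for light-harvesting antenna proteins, 7 for photosystem II proteins, 12 for photosystem I proteins, 6 for electron carriers and 2 for subunits of the ATP synthase. The transgenic plants (OE) carried 35S:BnaC02.TPS8. In this construct the cauliflower mosaic virus 35S promoter, which is active in most plant tissues, drives TPS8 from Brassica napus, which belongs to the family of trehalose phosphate synthases. The wild type (WT) was Col-0. Both groups grew for 10 days on diluted Murashige and Skoog medium with agar and 1% sucrose, under sufficient nitrogen, and each group has 5 libraries from shoots. The titles name the OE material OE-11 whereas the study design names line O2, so which line was sequenced is uncertain, and all 5 OE libraries bear the same line name. The stated purpose of the study was to find pathways that TPS8 regulates.

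In the light reactions, antenna proteins bind chlorophyll and pass excitation energy to the reaction centres of photosystem II and photosystem I. Photosystem II oxidises water, electrons move through the cytochrome b6f complex and plastocyanin to photosystem I, and ferredoxin with its reductase delivers them to NADP. The proton gradient built along the way drives the ATP synthase. The reaction centre proteins themselves are made from plastid genes, whereas the antenna and many peripheral subunits are made from nuclear genes and imported, and several of these nuclear genes exist in Arabidopsis as near-identical copies. Sugars are known to repress genes of photosynthesis, and trehalose phosphate is known as a signal of sucrose supply.

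Levels are given in FPKM, fragments scaled to transcript length and library size, so levels of different genes below are compared per unit of transcript length. Summed over all genes the libraries held 918877 to 996313 FPKM, and the steps between low values give an estimated 1.83e+07 to 2.33e+07 fragments per library. Plastid-encoded genes took 0.442% to 2.9% of the summed FPKM in OE and 0.552% to 4.28% in WT. The shoot markers, 6 genes of carbon fixation in green cells, summed to 28685 to 32151 FPKM in OE and 28393 to 32788 FPKM in WT. Most of this sum was RBCS1A, at 21345 ± 1131 FPKM in OE and 21381 ± 1392 FPKM in WT. All 6 markers were on average lower in OE, with a median log2 difference of -0.09, beside 49.2% of all tested genes below 0. Of the 6, 0 had an adjusted p under 0.05 (limma). Of 12 root markers only SHR and PHO1 reached the filter of 1 FPKM, and the list summed to 11.3 to 13.3 FPKM in OE and 9.82 to 13.2 FPKM in WT. The transcript of the transgene was not analysed here. The plant's own TPS8 (AT1G70290) differed by -1.0 on the log2 scale (SE 0.16, adjusted p = 0.00978, limma), that is, it was lower in OE. Without the 3 libraries richest in plastid RNA (OE replicate 4 and WT replicates 2 and 4), 0 genes of the table passed. The labels do not say whether the 5 libraries came from separate cultures, so each p-value rests on the spread among libraries, which may be technical. In such bulk tissue, fewer cells of a type and less RNA per cell cannot be told apart.

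The light reaction genes held a large share of the summed FPKM, and none differed between OE and WT past the threshold. Their summed level was 202493 ± 11427 FPKM in OE and 213584 ± 12080 FPKM in WT (SD, n = 5 each). That was 21.4 ± 1.29% of all FPKM in OE and 22.6 ± 1.4% in WT. By library the share was 22.0%, 22.2%, 20.9%, 19.3% and 22.5% in OE, against 23.7%, 21.5%, 24.5%, 21.7% and 21.6% in WT. OE replicate 4 was the lowest and WT replicate 3 the highest, and the ranges of the groups overlapped. Within OE, replicate 4 was also the lowest library for 32 of the 45 genes, and within WT replicate 5 was the lowest for 31, so many genes of a library moved together. OE replicate 4 also had the highest share of plastid RNA in OE, 2.9%, whereas WT replicate 5 had 0.814%. WT replicates 2 and 4, with 3.98% and 4.28% plastid RNA, were the lowest of WT for 7 and 2 members. Without the 3 libraries richest in plastid RNA, the members held 21.9% of all FPKM in OE and 23.3% in WT, 33 of 45 differences were below 0, and their median was -0.04.

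**Figure D1:**
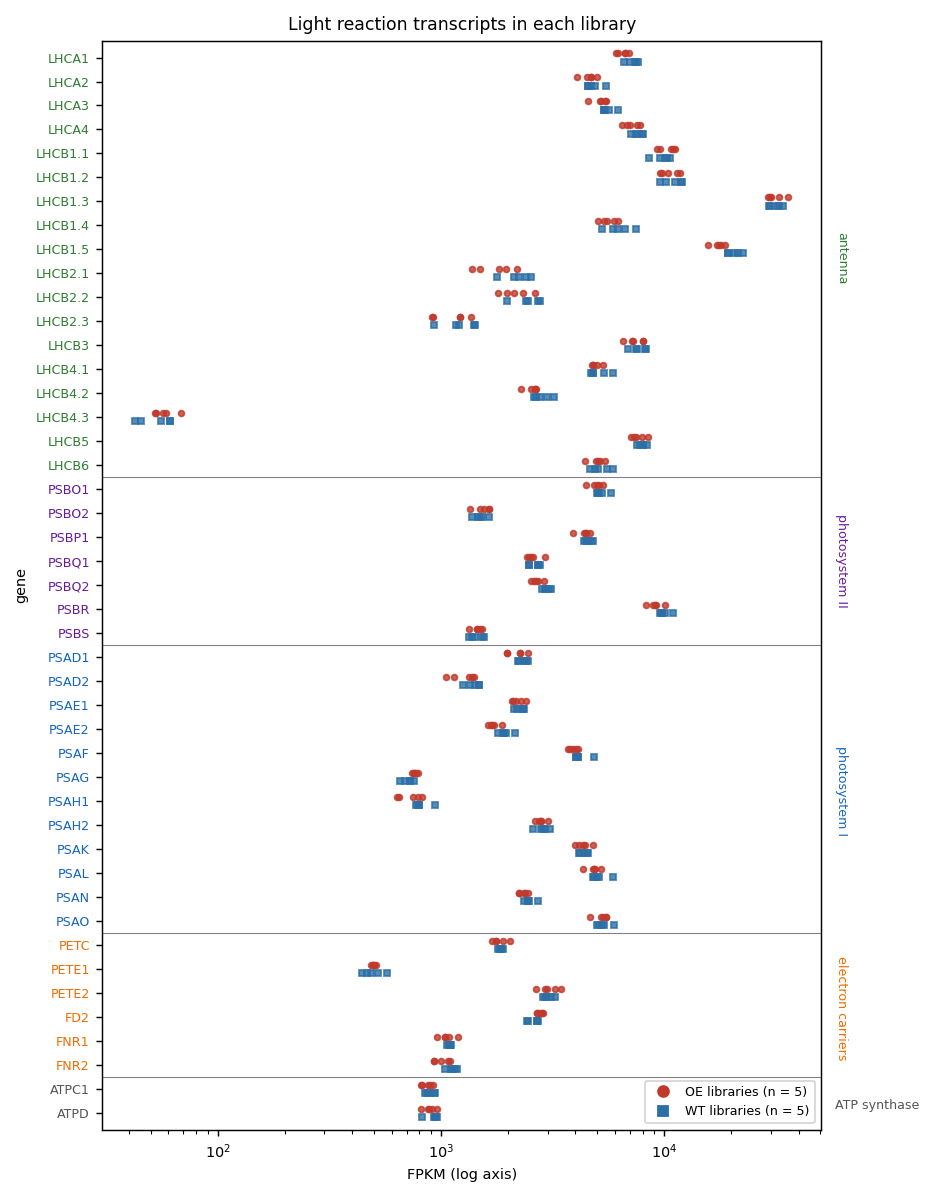
FPKM of each of the 45 genes (rows, ordered by role) in each library on a log axis, with OE libraries as circles above WT libraries as squares in each row. Levels reach from LHCB4.3, at 42.5 to 68.1 FPKM, to LHCB1.3, at 29118 to 36023 FPKM, and OE and WT values overlap in every row except that of LHCB1.5.

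In a limma fit across all 17713 genes with a mean of at least 1 FPKM, which kept all 45 members, 0 members had an adjusted p under 0.05. The share over all tested genes was 2.89%, with 2.37% higher and 0.525% lower in OE. At an unadjusted p under 0.05, 8 members were lower in OE (17.8% of them) and 1 was higher (2.22%), against 5.26% and 9.89% of all tested genes, or 15.1% in either direction. The groups did not overlap for 1 member, or 2.22%, against 5.83% of all tested genes, 4.41% with OE higher and 1.42% with OE lower. The fitted log2 difference, OE minus WT, was below 0 for 37 of the 45 members (82.2%), for 31 after quantile normalization and 40 after median-ratio scaling, beside 49.2% of all tested genes in the first fit. Its median over the members was -0.06, beside 0.003162 over all tested genes. Among tested genes with a mean of at least 500 FPKM, 49.1% of 232 genes were below 0. With the members taken out of these, 40.7% of the remaining 189 genes were below 0 and their median was 0.04. The members are not independent of each other, since the same 10 libraries carry all of them, and no test was made over the list. The median standard error of the members' log2 differences was 0.06, and a p that misses the threshold does not show that a gene did not differ.

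**Figure D2:**
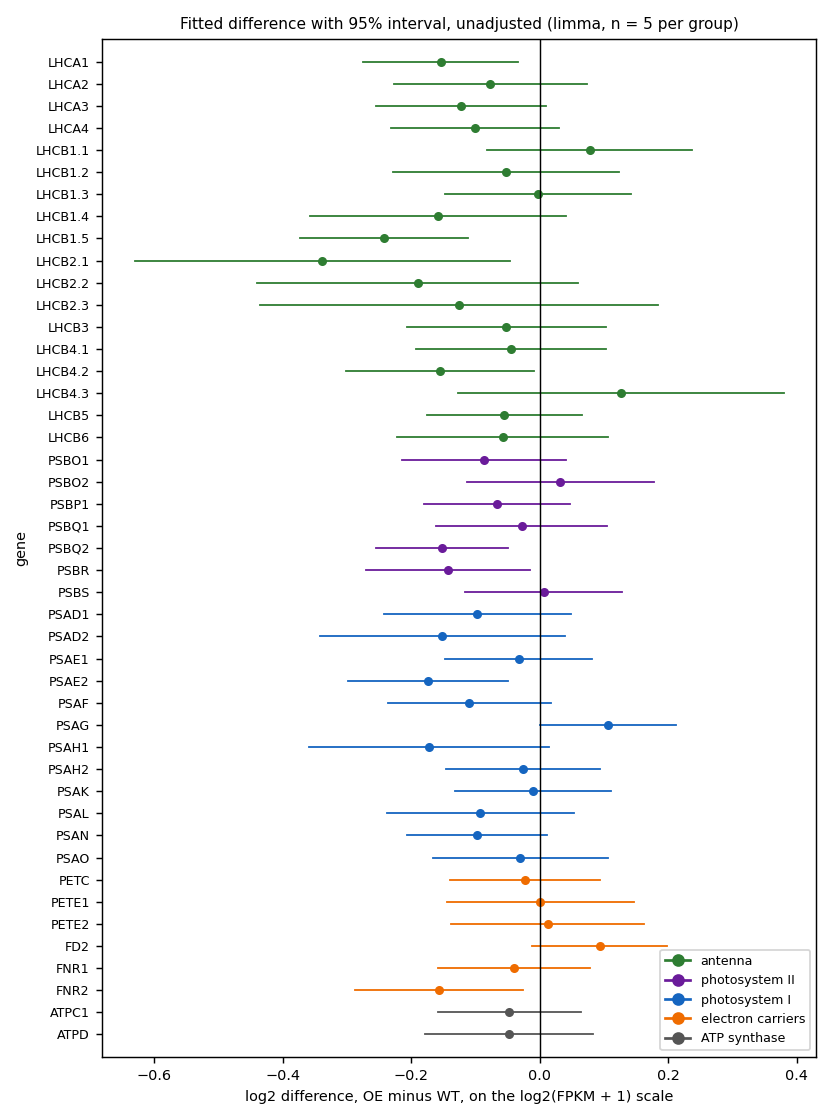
Fitted log2 difference (OE minus WT, on the log2(FPKM + 1) scale) of each gene with its unadjusted 95% interval from limma, coloured by role. The differences run from -0.34 for LHCB2.1 to 0.13 for LHCB4.3, and most points lie left of 0 with intervals that cross it.

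The 18 antenna genes were the largest class, with a summed level of 131587 ± 8581 FPKM in OE and 139334 ± 9682 FPKM in WT, or 13.9 ± 0.962% of all FPKM in OE and 14.8 ± 1.12% in WT. None passed the threshold. Of the 18 differences 16 were below 0, of which LHCB1.5, LHCB3 and LHCB5 turned above 0 after quantile normalization, and the median was -0.09. The antenna of photosystem I is made from LHCA1 to LHCA4. All 4 were on average lower in OE, with a median of -0.11, and their sum was 23380 ± 1247 FPKM in OE and 25323 ± 1431 FPKM in WT. LHCA1 (AT3G54890), which joins LHCA4 in a heterodimer at the photosystem I rim, had 6972, 6645, 6656, 6205 and 6056 FPKM in OE libraries, against 7393, 7006, 7668, 7495 and 6633 FPKM in WT libraries. The groups overlapped, since the lowest WT library lay under the highest OE libraries. Its log2 difference was -0.15 (SE 0.05, unadjusted p = 0.017, adjusted p = 0.194, limma).

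The 9 genes for the major antenna of photosystem II (LHCB1, LHCB2 and LHCB3), whose products form the LHCII trimers, summed to 87992 ± 6380 FPKM in OE and 92837 ± 6870 FPKM in WT. LHCB1 is encoded by 5 copies. LHCB1.2 (AT1G29910, chr1:10472280-10473502, minus strand), LHCB1.1 (AT1G29920, chr1:10474656-10475969, minus strand) and LHCB1.3 (AT1G29930, chr1:10477885-10479114, plus strand) lie side by side in RefSeq's annotation of TAIR10.1. LHCB1.5 (AT2G34420, chr2:14522524-14523568, minus strand) and LHCB1.4 (AT2G34430, chr2:14524607-14525918, plus strand) lie next to each other with opposite orientation. The coding sequences of the chromosome 1 copies were 95.65% to 96.39% identical, those of LHCB1.4 and LHCB1.5 were 91.42% identical, and LHCB1.5 matched the chromosome 1 copies at 89.30% to 90.42%. Coding bases 220 to 279, counted from the start codon of LHCB1.3, show what separates the copies, because a fragment can be assigned only through such positions. They were chosen as the ungapped 60-base stretch in which the copies together differ most from LHCB1.3, so they are not typical. Over the whole coding sequence, LHCB1.1 was 96.14% and LHCB1.5 89.30% identical to LHCB1.3. Capitals mark bases that differ from LHCB1.3 (RefSeq, TAIR10.1, coding strand).
LHCB1.1: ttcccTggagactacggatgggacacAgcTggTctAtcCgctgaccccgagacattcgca
LHCB1.2: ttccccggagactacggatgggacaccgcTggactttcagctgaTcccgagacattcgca
LHCB1.3: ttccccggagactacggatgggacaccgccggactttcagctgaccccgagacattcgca
LHCB1.4: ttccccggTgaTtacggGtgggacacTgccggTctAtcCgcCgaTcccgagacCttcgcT
LHCB1.5: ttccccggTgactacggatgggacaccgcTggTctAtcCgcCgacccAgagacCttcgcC
In these 60 bases LHCB1.2 differs from LHCB1.3 at 2 positions and LHCB1.1 at 6, whereas LHCB1.5 differs at 9 and LHCB1.4 at 11. Some of the capitals that LHCB1.4 and LHCB1.5 share occur only in these chromosome 2 copies, and others occur in LHCB1.1 as well.

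LHCB1.3 was the most abundant transcript of the whole table, and LHCB1.5 ranked at number 3. LHCB1.3 had 30086, 32555, 29118, 29786 and 36023 FPKM in OE libraries, against 31973, 29384, 33926, 32586 and 29726 FPKM in WT libraries. These ranges overlapped almost fully, and the log2 difference was 0.00 (95% interval -0.15 to 0.14). LHCB1.5 had 17645, 17901, 17218, 15743 and 18730 FPKM in OE libraries, against 21314, 19247, 22534, 20755 and 19314 FPKM in WT libraries. Every OE library lay below every WT library, which held for no other member and, in this direction, for 1.42% of all tested genes. The log2 difference of LHCB1.5 was -0.24 (SE 0.06, 95% interval -0.37 to -0.11, unadjusted p = 0.00183, adjusted p = 0.0567, limma), short of the threshold. After quantile normalization it was 0.08, with the opposite sign. That setting gives each rank the same value in all libraries. At the highest ranks it therefore shows changes of rank and cannot decide the direction of a level. The difference of LHCB1.5 was -0.26 under median-ratio scaling and ran from -0.27 to -0.21 with 1 library left out. It passed with a filter at 5 FPKM (adjusted p = 0.0334) and without organelle genes (adjusted p = 0.0363), and its adjusted p over all alternatives ran from 0.0334 to 0.781.

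The copies took unequal parts of the LHCB1 pool, and the parts of LHCB1.5 and LHCB1.1 stood apart between genotypes. LHCB1.5 made up 23.8%, 22.7%, 24.2%, 22.6% and 22.3% of the summed LHCB1 level in OE libraries, against 26.0%, 26.1%, 26.1%, 25.5% and 26.4% in WT libraries. All OE values were below all WT values. LHCB1.1 made up 14.4%, 14.0%, 13.1%, 13.7% and 13.3% in OE, against 12.9%, 13.0%, 11.9%, 12.4% and 11.7% in WT, with all OE values above all WT values. LHCB1.3 took 41.7 ± 1.07% in OE and 39.8 ± 0.661% in WT, and LHCB1.2 took 14.0 ± 0.290% in OE and 13.8 ± 0.506% in WT. LHCB1.4 took 7.45 ± 0.259% in OE and 7.94 ± 0.589% in WT, and the groups overlapped for these 3 copies. Shares were chosen for display after the values were seen and were not tested, and shares of 1 pool cannot move independently. As a level, LHCB1.1 was 10360 ± 853 FPKM in OE and 9816 ± 814 FPKM in WT, a log2 difference of 0.08 (95% interval -0.08 to 0.24).

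**Figure D3:**
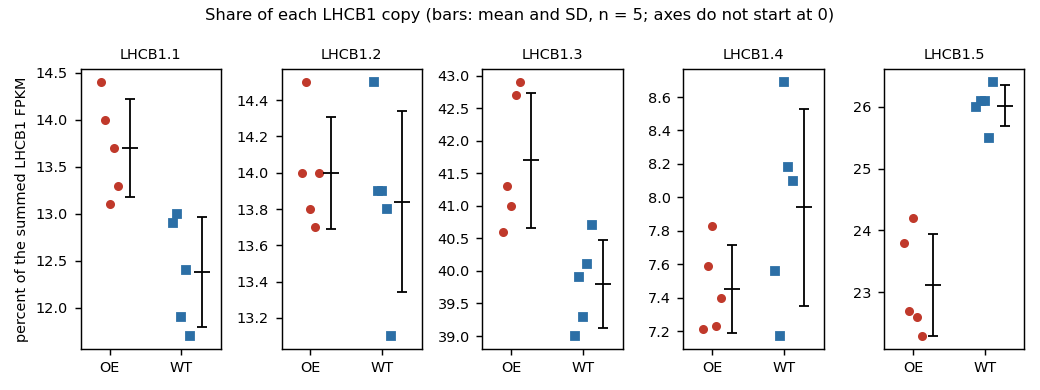
Percent of the summed LHCB1 FPKM (vertical axes, each with its own range that does not start at 0) held by each of the 5 copies in each library, with OE left of WT and bars for mean and SD (n = 5 each). LHCB1.5 lies at 22.3% to 24.2% in OE and 25.5% to 26.4% in WT, and LHCB1.1 at 13.1% to 14.4% in OE and 11.7% to 13.0% in WT.

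How fragments were divided among the copies bears on these shares. Of the 31-base words in their RefSeq transcripts, 68.85% were unique to LHCB1.1, 74.94% to LHCB1.2, 61.42% to LHCB1.3 and 76.52% to LHCB1.4. None were unique to LHCB1.5, because an annotated long non-coding RNA on the opposite strand, AT2G08665, contains the whole transcript. AT2G08665 was at 0 in all libraries, after values very close to 0 had been set to 0. LHCB1.5 also shared 26.01% of its words with LHCB1.4. Sense and antisense reads cannot be told apart without strand information, which the sources used here do not give, and the part of this sharing in the LHCB1.5 values was not tested.

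The copies also differ upstream. The 250 bases before the transcript start of the copies whose shares stood apart, LHCB1.5 (chr2:14523569-14523818, minus strand) and LHCB1.1 (chr1:10475970-10476219, minus strand), and of the most abundant copy, LHCB1.3 (chr1:10477635-10477884, plus strand), are given 5′ to 3′ from TAIR10.1. Capitals mark matches, on either strand, to the GLK site CCAATC, named for the GOLDEN2-LIKE activators of photosynthesis genes, the G-box CACGTG, the I-box GATAAG and the TATA box TATAAA.
LHCB1.5: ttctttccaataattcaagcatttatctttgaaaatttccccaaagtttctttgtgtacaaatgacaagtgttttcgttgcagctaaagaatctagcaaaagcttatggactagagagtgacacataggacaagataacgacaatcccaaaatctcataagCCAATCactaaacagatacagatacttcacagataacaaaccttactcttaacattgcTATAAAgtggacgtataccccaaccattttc
LHCB1.1: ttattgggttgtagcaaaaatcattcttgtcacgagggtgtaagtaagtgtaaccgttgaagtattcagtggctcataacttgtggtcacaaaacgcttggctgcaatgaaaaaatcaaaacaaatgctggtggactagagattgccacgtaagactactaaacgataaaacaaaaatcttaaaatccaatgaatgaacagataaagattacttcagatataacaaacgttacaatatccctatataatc
LHCB1.3: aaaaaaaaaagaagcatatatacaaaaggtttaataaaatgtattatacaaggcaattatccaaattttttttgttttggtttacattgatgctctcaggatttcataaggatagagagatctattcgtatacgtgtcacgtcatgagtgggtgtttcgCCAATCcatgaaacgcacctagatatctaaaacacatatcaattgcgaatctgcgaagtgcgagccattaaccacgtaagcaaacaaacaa
LHCB1.5 holds a GLK site and a TATA box of these letters, LHCB1.3 holds a GLK site, and LHCB1.1 holds none of the 4. The windows of LHCB1.2 and LHCB1.4, whose shares overlapped between groups, also hold none of the 4. Across the list, the GLK site occurred in the windows of 10 of 18 antenna genes (55.6%), 0 of 12 photosystem I genes and 14 of all 45 members (31.1%), beside 10.2% of 27443 nuclear protein-coding genes. The G-box occurred in 9 members (20%) and 6.49% of all genes, the I-box in 12 (26.7%) and 12.3%, and the TATA box in 20 (44.4%) and 47.3%. A match is a description of letters and not of binding.

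LHCB2 proteins are among the antenna subunits phosphorylated in state transitions, in which LHCII moves between the photosystems. LHCB2.1 (AT2G05100) had 2196, 1819, 1946, 1373 and 1497 FPKM in OE libraries, against 2412, 2234, 2529, 2128 and 1780 FPKM in WT libraries. OE replicates 4 and 5 were the lowest of all 10 libraries and WT replicates 4 and 5 lay within the OE range. Its log2 difference, -0.34, was the most negative of the 45 members (SE 0.13, 95% interval -0.63 to -0.05, unadjusted p = 0.0269, adjusted p = 0.246, limma). LHCB2.2 had 2164 ± 323 FPKM in OE and 2465 ± 316 FPKM in WT, and LHCB2.3 had 1125 ± 199 FPKM in OE and 1226 ± 201 FPKM in WT. In OE the 3 copies had the highest coefficients of variation of the 45 members, 14.9% to 18.9%. In WT theirs were 12.8% to 16.4%. There LHCB4.3, at 16.5%, was higher than all 3, and LHCB1.4, at 13.1%, was higher than LHCB2.1 and LHCB2.2. LHCB3, which has a single gene, had 7405 ± 646 FPKM in OE and 7672 ± 561 FPKM in WT.

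The minor antenna proteins CP29 (LHCB4), CP26 (LHCB5) and CP24 (LHCB6) connect the trimers to the photosystem II core. LHCB4.2 (AT3G08940) had 2549 ± 158 FPKM in OE and 2843 ± 244 FPKM in WT, a log2 difference of -0.16 (unadjusted p = 0.0389, adjusted p = 0.292, limma). LHCB4.1 had 4934 ± 245 FPKM in OE and 5103 ± 509 FPKM in WT. LHCB5 had 7684 ± 553 FPKM in OE and 7972 ± 323 FPKM in WT, and LHCB6 had 4992 ± 371 FPKM in OE and 5203 ± 514 FPKM in WT. LHCB4.3 was the least abundant member, at 68.1, 52.9, 56.7, 52.2 and 58.3 FPKM in OE libraries, against 60.8, 55.8, 61.2, 42.5 and 45.2 FPKM in WT libraries. Its log2 difference was the most positive of the list, 0.13, with an interval of -0.13 to 0.38.

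The 7 photosystem II genes encode the oxygen-evolving proteins PSBO, PSBP and PSBQ, the associated protein PSBR and the photoprotective protein PSBS. None passed the threshold, 5 of 7 differences were below 0, and the class took 2.82 ± 0.183% of all FPKM in OE and 3.01 ± 0.0990% in WT. PSBQ2 (AT4G05180) had 2661, 2608, 2711, 2524 and 2886 FPKM in OE libraries, against 2947, 2846, 3058, 3104 and 2913 FPKM in WT libraries. Of the OE libraries only replicate 5 reached into the WT range, above WT replicate 2. The log2 difference of PSBQ2 was -0.15 (SE 0.05, 95% interval -0.25 to -0.05, unadjusted p = 0.00771, adjusted p = 0.125, limma). PSBR (AT1G79040), the most abundant of the class, had 9175, 9097, 8904, 8285 and 10091 FPKM in OE libraries, against 10114, 9731, 9604, 10987 and 9796 FPKM in WT libraries. Again a single OE library, replicate 5, lay among the WT values, and the log2 difference was -0.14 (unadjusted p = 0.0317, adjusted p = 0.265, limma). PSBO1 had 4934 ± 321 FPKM in OE and 5240 ± 317 FPKM in WT, a log2 difference of -0.09 (unadjusted p = 0.16, adjusted p = 0.533, limma). PSBP1 had 4375 ± 271 FPKM in OE and 4575 ± 170 FPKM in WT. PSBS, the sensor of lumen acidity for heat dissipation, had 1449 ± 71.2 FPKM in OE and 1444 ± 93.2 FPKM in WT, with an interval of the difference of -0.12 to 0.13.

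Photosystem I was represented by 12 genes, among them PSAD and PSAE on the side where ferredoxin docks, PSAF and PSAN on the plastocyanin side, and PSAG, PSAH, PSAK, PSAL and PSAO, which bear antenna contacts. None passed the threshold. Of 12 differences 11 were below 0, of which PSAE1, PSAK and PSAO turned above 0 after quantile normalization, and the class took 3.41 ± 0.151% of all FPKM in OE and 3.58 ± 0.164% in WT. PSAE2 (AT2G20260) had 1689, 1626, 1725, 1680 and 1878 FPKM in OE libraries, against 1906, 1798, 1957, 2145 and 1898 FPKM in WT libraries. OE replicate 5 exceeded WT replicate 2 and the other OE libraries lay below all WT libraries. The log2 difference of PSAE2 was -0.17 (SE 0.06, 95% interval -0.30 to -0.05, unadjusted p = 0.0106, adjusted p = 0.150, limma). PSAH1 (AT3G16140) had 728 ± 83.6 FPKM in OE and 818 ± 69.6 FPKM in WT, a log2 difference of -0.17 (unadjusted p = 0.0663, adjusted p = 0.374, limma). PSAO, the most abundant of the class, had 5228 ± 359 FPKM in OE and 5338 ± 364 FPKM in WT. PSAF, PSAK, PSAL and PSAN had log2 differences of -0.11, -0.01, -0.09 and -0.10.

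PSAG (AT1G55670, chr1:20802670-20803449, minus strand) was the single photosystem I gene with a higher average in OE. It had 754, 786, 772, 758 and 744 FPKM in OE libraries, against 725, 723, 759, 655 and 686 FPKM in WT libraries. Only WT replicate 3 reached into the OE range, and the log2 difference was 0.11 (SE 0.05, unadjusted p = 0.0487, adjusted p = 0.327, limma). PSAG shared 59.87% of its 31-base words with AT1G55673, an annotated gene on the opposite strand of unknown function. AT1G55673, singled out after its values were seen, had 7162, 5803, 6789, 6885 and 6265 FPKM in OE libraries, against 7666, 7569, 8279, 8312 and 7763 FPKM in WT libraries. All OE libraries lay below all WT libraries, a log2 difference of -0.27 (SE 0.06, adjusted p = 0.0404, limma), a call that was lost under 14 of 19 alternatives, with adjusted p from 0.0220 to 0.228. PSAG and AT1G55673 together summed to 7344 ± 535 FPKM in OE and 8627 ± 348 FPKM in WT, and the groups did not overlap. So the sum was lower in OE while the part listed as PSAG was on average higher, and which strand the fragments came from cannot be told apart. PSAE1 also overlaps an antisense gene, AT4G28755, with which it shared 30.86% of its words. PSAE1 had 2210 ± 134 FPKM in OE and 2259 ± 95.9 FPKM in WT, and its sum with AT4G28755 was 7289 ± 565 FPKM in OE and 7841 ± 650 FPKM in WT, with overlapping groups.

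**Figure D4:**
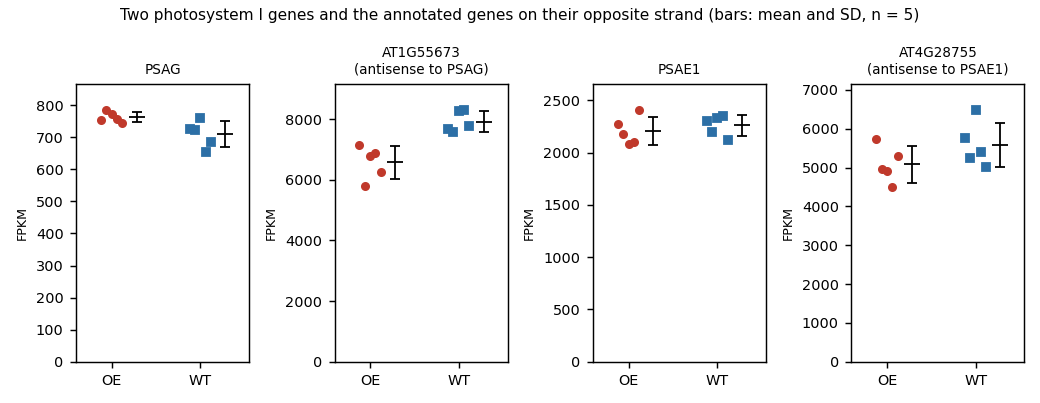
FPKM (vertical axes, from 0) in each library for PSAG, the gene AT1G55673 on its opposite strand, PSAE1 and the gene AT4G28755 on its opposite strand, with OE left of WT and bars for mean and SD (n = 5 each). AT1G55673 lies between 5803 and 7162 FPKM in OE and between 7569 and 8312 FPKM in WT, whereas the groups overlap in the other panels.

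The 6 electron carrier genes showed no common direction: 3 of 6 differences were below 0, PETC, PETE1 and PETE2 changed sign with the scaling, the median was -0.01, and the class took 1.08 ± 0.0561% of all FPKM in OE and 1.08 ± 0.0267% in WT. FNR2 (AT1G20020), a ferredoxin-NADP reductase, had 1092, 934, 999, 932 and 1078 FPKM in OE libraries, against 1107, 1122, 1043, 1183 and 1150 FPKM in WT libraries. WT replicate 3 lay within the OE range, and the log2 difference was -0.16 (SE 0.06, unadjusted p = 0.0228, adjusted p = 0.226, limma). FNR1, the other reductase, had 1062 ± 81.2 FPKM in OE and 1090 ± 15.6 FPKM in WT. FD2 (AT1G60950), the main leaf ferredoxin, had 2783, 2687, 2839, 2869 and 2677 FPKM in OE libraries, against 2425, 2722, 2686, 2700 and 2463 FPKM in WT libraries. Its groups overlapped, with a log2 difference of 0.09 (unadjusted p = 0.0759, adjusted p = 0.396, limma). The plastocyanin PETE2, the most abundant carrier, had 3053 ± 300 FPKM in OE and 3018 ± 146 FPKM in WT, and the other plastocyanin, PETE1, had 496 ± 8.59 FPKM in OE and 498 ± 51.5 FPKM in WT. PETC, the Rieske protein of the cytochrome b6f complex, had 1824 ± 136 FPKM in OE and 1849 ± 36.1 FPKM in WT. The ATP synthase subunits ATPC1 and ATPD had 864 ± 46.6 FPKM and 888 ± 54.2 FPKM in OE, against 892 ± 36.9 FPKM and 918 ± 57.3 FPKM in WT, both with a log2 difference of -0.05.

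Where 2 nuclear genes encode the same subunit, their ratio within a library is free of any factor that scales the whole library. Of 9 such pairs compared, 4 ratios differed between OE and WT in a permutation test (two-sided, exact, with p adjusted over the 9 pairs). How often ratios of other gene pairs differ in these libraries was not examined. The PSBO1 to PSBO2 ratio was 3.11, 3.19, 3.23, 3.31 and 3.24 in OE libraries, against 3.45, 3.38, 3.51, 3.49 and 3.63 in WT libraries. Every OE value was below every WT value, a log2 difference of -0.12 (exact p = 0.00794, the smallest the design allows, adjusted p = 0.0238). The PSBQ1 to PSBQ2 ratio was 0.971, 0.949, 0.936, 0.957 and 1.01 in OE libraries, against 0.921, 0.869, 0.911, 0.878 and 0.847 in WT libraries. Here every OE value was above every WT value, a log2 difference of 0.12 (exact p = 0.00794, adjusted p = 0.0238).

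The LHCB2.1 to LHCB2.2 ratio was 0.837, 0.861, 0.837, 0.766 and 0.761 in OE libraries, against 0.886, 0.911, 0.913, 0.886 and 0.900 in WT libraries. All OE values were lower, a log2 difference of -0.15 (exact p = 0.00794, adjusted p = 0.0238). The PSAE1 to PSAE2 ratio was 1.29 ± 0.0572 in OE and 1.17 ± 0.0562 in WT (SD, n = 5 each). One OE library lay among the WT values, with a log2 difference of 0.14 (exact p = 0.0159, adjusted p = 0.0357), and the call was lost under 9 of 13 alternatives, among them leaving out OE replicates 1, 2, 4 or 5 or WT replicates 1, 4 or 5 (adjusted p 0.0536 to 0.0571). Without the 3 libraries richest in plastid RNA, the log2 differences of the ratios of PSBO, PSBQ, LHCB2 and PSAE were -0.15, 0.11, -0.13 and 0.14, each with an adjusted exact p of 0.129. With fewer libraries the smallest p that the exact test allows is higher, so these p-values are not comparable with those from all libraries. The directions differ between pairs: relative to its partner, the more abundant copy was lower in OE for PSBO and PSBQ, and the less abundant copy for LHCB2 and PSAE.

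The remaining 5 ratios missed the threshold with all libraries. Of these, FNR1 to FNR2 passed under 1 of 13 alternatives (lowest adjusted p = 0.0429, exact) and LHCB4.1 to LHCB4.2 under 2 (lowest adjusted p = 0.0357, exact). LHCB4.1 to LHCB4.2 was 1.94 ± 0.118 in OE and 1.79 ± 0.0438 in WT (exact p = 0.0476, adjusted p = 0.0833). FNR1 to FNR2 was 1.06 ± 0.0518 in OE and 0.974 ± 0.0496 in WT (exact p = 0.0556, adjusted p = 0.0833). PSAH1 to PSAH2 was 0.261 ± 0.0267 in OE and 0.289 ± 0.0320 in WT (exact p = 0.167, adjusted p = 0.214). PSAD1 to PSAD2 was 1.74 ± 0.0996 in OE and 1.67 ± 0.0520 in WT (exact p = 0.246, adjusted p = 0.277), and PETE1 to PETE2 was 0.164 ± 0.0179 in OE and 0.165 ± 0.0127 in WT (exact p = 0.897, adjusted p = 0.897). The PSBO and PSBQ copies are well separated in sequence: at least 99.85% of the 31-base words of each were unique, with coding identities of 83.58% and 76.54%. LHCB2.1 and LHCB2.2 shared 31.17% and 39.35% of their words with each other, and PSAE1 overlaps the antisense gene named above, so division of fragments can enter those ratios and its part was not tested.

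**Figure D5:**
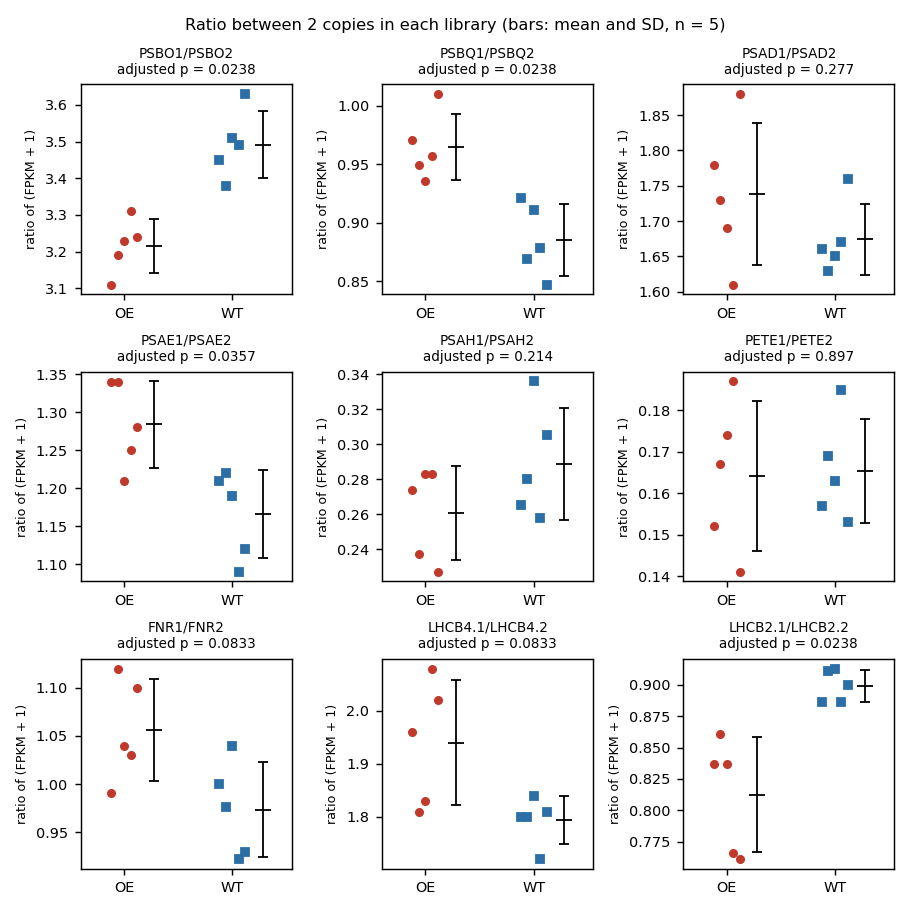
Ratio of FPKM + 1 between the copies of each of 9 gene pairs in each library (vertical axes differ and do not start at 0), with OE left of WT, bars for mean and SD (n = 5 each) and the adjusted exact p above each panel. OE and WT values do not overlap for PSBO1/PSBO2, PSBQ1/PSBQ2 and LHCB2.1/LHCB2.2.

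Other genes of the pathway were counted by list, and each list below had 0 genes past the threshold in either direction (limma). Of all tested genes, 15.1% had an unadjusted p under 0.05 and 49.2% were below 0, and the shares of the small lists are to be read against these. Of 10 other photosystem and antenna genes, 8 differences were below 0 with a median of -0.02, and 1 had an unadjusted p under 0.05. The most abundant, PSBX, had 5526 ± 349 FPKM in OE and 5715 ± 280 FPKM in WT. Of 7 other carriers and ATP synthase genes, 2 were below 0 and 1 had an unadjusted p under 0.05. The most abundant, PETM, a small subunit of the cytochrome b6f complex, had 1315 ± 86.7 FPKM in OE and 1295 ± 36.1 FPKM in WT. Of 13 genes of the NDH complex, which returns electrons to the carrier chain, 7 were below 0 and 3 had an unadjusted p under 0.05. Its most abundant gene, NDHL, had 223 ± 13.6 FPKM in OE and 248 ± 8.90 FPKM in WT (adjusted p = 0.186, limma). Of 13 genes for photoprotection and state transitions, 9 were below 0 and 4 had an unadjusted p under 0.05, and the most abundant, LIL3.2, had 377 ± 8.76 FPKM in OE and 349 ± 26.1 FPKM in WT. The kinase STN7 and the phosphatase TAP38, which act on LHCII in state transitions, were singled out after their values were seen. TAP38 had 163 ± 3.93 FPKM in OE and 183 ± 3.40 FPKM in WT, without overlap, a log2 difference of -0.17 (adjusted p = 0.0592, limma). STN7 had 38.4 ± 3.51 FPKM in OE and 45.4 ± 5.27 FPKM in WT (adjusted p = 0.236, limma). Of 6 genes for assembly and membrane insertion, 3 were below 0 and 0 had an unadjusted p under 0.05, with ALB3, the insertase for antenna proteins, at 359 ± 19.2 FPKM in OE and 379 ± 13.4 FPKM in WT. Of 10 transcription factors, 5 were below 0 and 2 had an unadjusted p under 0.05. The most abundant, PIF4, a phytochrome-interacting factor that promotes elongation growth, had 76.6 ± 11.5 FPKM in OE and 94.2 ± 7.74 FPKM in WT (adjusted p = 0.170, limma). Of 32 plastid genes for the light reactions, 20 passed the filter, 5 of these were below 0, 0 had an unadjusted p under 0.05, and 11 were listed at 0 in all libraries. Many that passed had only a few FPKM, some with values of 0, and OE replicate 4 was the highest OE library for most of them. In psbA it had 108 FPKM (other OE libraries 9.21 to 42) and in petD 11.1 FPKM (others 2.58 to 3.47). The direction of these differences thus leans on 1 library.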

How the data were processed

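Shoot RNA was isolated with the RNeasy Plant Mini Kit and made into libraries with the NEBNext Ultra II RNA kit, per the labels' protocols. The authors deposited 1 column of FPKM per library. Tools named in the submitters' processing notes are kallisto 043.1, sleuth, Trimmomatic 0.36, R 3.5.1 and FastQC, with no order or task. For genome build, annotation and strand setting, nothing is given in the sources used here. Libraries were grouped by their titles. Depth, estimated from steps between low values of transcripts of at least 800 nt at an assumed 200 nt fragment, was 1.83e+07 to 2.33e+07 fragments.

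A linear model was fitted with limma 3.58.1 (R 4.3.3) on log2(FPKM + 1), which understates differences of low genes, for genes with a mean of at least 1 FPKM (17713 of 32824), with moderated variances that follow a trend, two-sided, with Benjamini-Hochberg adjustment over all of them and a threshold of 0.05. The fit was tested on simulated data. Ratios of copies were compared by exact permutation tests over all assignments of the libraries, adjusted over 9 pairs. All 45 members matched RefSeq's TAIR10.1 annotation, from which locations, upstream sequence (250 bases), coding identity (Biopython 1.88) and 31-base words came; the index word length of the authors is not stated. The members, lists, pairs and tests were chosen with earlier results of these data known. In full are described, per class, the 3 members with the smallest unadjusted p and the most abundant, and per other list any gene that passed, otherwise the most abundant; exceptions are named as such. Alternatives were a pseudocount of 0.1, no filter or 5 FPKM, quantile and median-ratio scaling, no trend, a replicate block, organelle genes left out, each library left out, and 3 libraries high in plastid RNA left out; the same were applied to AT1G55673 after its values were seen. Of 10 columns, 0 pairs were identical. Plots used Python 3.11.15 and matplotlib 3.10.9.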

Additional observations from a re-analysis of the deposited data

Results flagged for a closer look

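Of 110 sets of 5 values from 1 group, 5 held a library far from the other 4 by Dixon's criterion (0.71 for 5 samples), which chance gives in about 1 of 20. Among photosystem I genes WT replicate 3 stood high for PSAF (4828 FPKM, the other WT libraries at 4037 to 4113), for PSAH1 (941 FPKM, others 771 to 798) and for PSAL (5892 FPKM, others 4811 to 5121). The same library was the highest of WT for 27 of the 45 members. ATPD was low in WT replicate 5 (818 FPKM, others 927 to 959), the library that was lowest of WT for 31 members. The ratio of PSAD1 to PSAD2 was high in WT replicate 5 (1.76, others 1.63 to 1.67). No OE library was flagged.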

How the results depend on the processing

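Of the 45 members, 31 kept the sign of their difference under all 19 alternatives. The count of members past the threshold was 0 except for 1 each with a filter at 5 FPKM and without organelle genes (LHCB1.5 in both) and with the replicate block (LHCB2.1, adjusted p = 0.0452, limma). Over all tested genes, deviations of same-numbered libraries correlated weakly (0.199, -0.0385, -0.0864, 0.0740 and 0.178). For 2 of 5 numbers the own number was the best match. Single genes could still follow the number in both groups. The transcription factor GLK1, singled out after its values were seen, had 56.8, 55.7, 49, 36.9 and 35.5 FPKM in OE libraries, against 63.4, 51.8, 48.9, 38.4 and 35.4 FPKM in WT libraries. A gene picked for its pattern cannot decide whether the numbers pair the libraries, and this is not settled. With the block 781 genes of the table passed in place of 512, 189 of them lower in OE in place of 93, and 0 of 9 ratios, where 0.0625 is the smallest p the block allows. Lower genes numbered 156 after quantile normalization and 55 without the trend. Without the 3 libraries high in plastid RNA (4 OE against 3 WT), 0 genes in either direction and 0 ratios passed, and the cause was not tested. The smallest exact p is higher with so few libraries, so this count of ratios is not comparable with that from all libraries. Leaving out each library in turn gave 207 to 536 genes, 182 to 431 higher and 25 to 105 lower (lowest each time without OE replicate 2), 3 to 5 ratios, and a median over the members of -0.0975 to -0.0270.

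For genes at the highest ranks, quantile normalization cannot decide the direction, as given for LHCB1.5. Signs turned after quantile normalization for LHCB1.5 (0.0817), LHCB3 (0.0930), LHCB5 (0.0476), PSAE1 (0.0202), PSAK (0.0047), PSAO (0.015), PETC (0.0084) and PETE1 (-0.0883). They turned under median-ratio scaling and without organelle genes for PSBS (-0.0114 and -0.0112), PETE1 (-0.0162 and -0.0161) and PETE2 (-0.0052 and -0.0050), and without the 3 libraries for LHCB1.3 (0.0004), PSAH2 (0.036), PSAK (0.039), ATPD (0.0166) and the PETE1 to PETE2 ratio (0.0073). With 1 library left out, differences that crossed 0 ran from -0.0519 to 0.0248 for LHCB1.3, -0.0731 to 0.0081 for LHCB4.1, -0.0214 to 0.0350 for PSBS, -0.0609 to 0.0039 for PSAH2, -0.0479 to 0.0195 for PSAK, -0.0525 to 0.0128 for PSAO, -0.0611 to 0.0061 for PETC, -0.0384 to 0.0536 for PETE1, -0.0318 to 0.0611 for PETE2 and -0.0598 to 0.0412 for the PETE1 to PETE2 ratio.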
